A study of Xenopus laevis with 6 samples.

Results

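The circadian clock genes *clock*, *per1*, *per2*, *cry1*, *cry2*, *nr1d1* and *nfil3* were followed in a brain and pituitary block of juvenile *Xenopus laevis* frogs. They were taken by symbol: a probe set was a member when its annotation held a single symbol that, without the suffix .L or .S, was one of these 7 names. In all 7 genes were found, with 10 of the 32539 probe sets tested. The suffixes mark the copies of a gene on the long and short chromosomes of this allotetraploid frog. *cry2* was measured for both copies, and the other 6 genes for the L copy alone. Of these, *clock* has an S copy in the RefSeq gene table, which had no single-symbol probe set. For *per1*, *per2*, *cry1*, *nr1d1* and *nfil3* that table lists an L copy alone. *clock* and *per2* each had a pair of probe sets, written (a) and (b). The 6 frogs had an average body weight of 0.8 g and were injected once into the ventricles of the brain. Frogs 1 to 3 were given 0.6% saline, and frogs 4 to 6 were given 20 ng of recombinant leptin (rxLeptin, the *X. laevis* protein) per g of body weight. After 2 h the preoptic area, hypothalamus and pituitary were dissected as 1 block, and each frog was hybridized to its own array. The comparison asks which genes respond to leptin within this time.

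The vertebrate clock is a transcriptional feedback loop. CLOCK and its partner BMAL1 (gene *arntl*) activate genes through E-box elements, among them the *per* and *cry* genes, whose proteins return to the nucleus and repress CLOCK and BMAL1. A second loop runs through the nuclear receptor REV-ERB alpha (*nr1d1*), which represses *arntl*, and D-box elements are activated by DBP and TEF and repressed by NFIL3. The hypothalamus of mammals holds the master clock in the suprachiasmatic nucleus, and *per1* is also known there as a gene that light and cAMP signals induce rapidly. Levels of these transcripts move through the day. The time of day at which each frog was killed is not given in the sources used here, and its part in the values was not tested.

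The blocks were alike in mean neuronal signal but not in their pituitary, muscle and hypothalamic markers. The mean log2 signal of 6 neuronal markers lay between 11.08 and 11.22 in saline frogs and between 11.16 and 11.25 in leptin frogs. Single neuronal markers could vary more, as *nefl.L* did from 9.99 to 10.79. Of 12 pituitary markers listed, 7 were measured, and their mean was 6.27 in saline frog 1 and 10.98 to 12.01 in the other 5 frogs. In saline frog 1 prolactin (*prl.1.L*) read 3.54 and growth hormone (*gh1.L*) 4.35, both at the low end of the scale. The mean of 8 skeletal muscle markers was 9.08 in saline frog 3 and 6.71 to 7.29 in the others. That of 8 hypothalamic markers was 9.67 in saline frog 3 and 8.75 to 9.18 in the others. The mean of 3 glial markers was 10.85 to 11.36 in saline and 10.77 to 11.21 in leptin frogs. Of these, *slc1a3.L* was lower in every leptin frog (log2 -0.41, SE 0.12, limma adjusted p = 0.906), an ordering seen in 6.78% of all probe sets. *glul.S* differed by -0.40 (SE 0.15) and *mbp.S*, which ran from 12.36 to 13.61, by 0.33 (SE 0.32). The mean of 7 blood and vessel markers was 10.85 to 11.47 in saline and 10.92 to 11.25 in leptin frogs. Single ones varied more, as *hba2.L* did from 10.56 to 12.26 and *hba3.L* from 10.49 to 12.21, both highest in saline frog 1. Leptin frog 6 had the narrowest spread of signals, with an SD over probe sets of 2.33 on its array against 2.39 to 2.41 on the others. Values are log2 signals as deposited. A level from a mixed block cannot tell fewer cells from less RNA per cell, and probe sets bind with different strength, so that the order of their signals is not an order of transcript abundance.

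None of the clock genes differed between leptin and saline frogs beyond the spread between frogs. With limma, 0 of the 10 probe sets passed an adjusted p of 0.05 (adjusted p from 0.906 to 0.998), as did 0 of all 32539 probe sets (0%). At an unadjusted p under 0.05 there were also 0 of 10, against 4.71% of all probe sets. In all 10 the groups overlapped, where 5.15% of all probe sets had every leptin frog above every saline frog and 6.78% every leptin frog below. The estimated differences, leptin minus saline, ran from log2 0.00 to 0.24 with a median of 0.16, beside a median of 0.01 over all probe sets. All 10 estimates were above 0, as were 52.4% of all probe sets, but that of *nfil3.L* was 0.00 when rounded and that of *cry1.L* 0.02. Taken singly, the 95% intervals of the 10 probe sets reached at most 1.65-fold upward and at most 0.756-fold downward. For scale, *socs3.L*, the feedback inhibitor of the leptin receptor and the probe set with the smallest p on the array, was 2.32-fold higher in leptin frogs (log2 1.21, SE 0.10, limma adjusted p = 0.291).

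**Figure D1:**
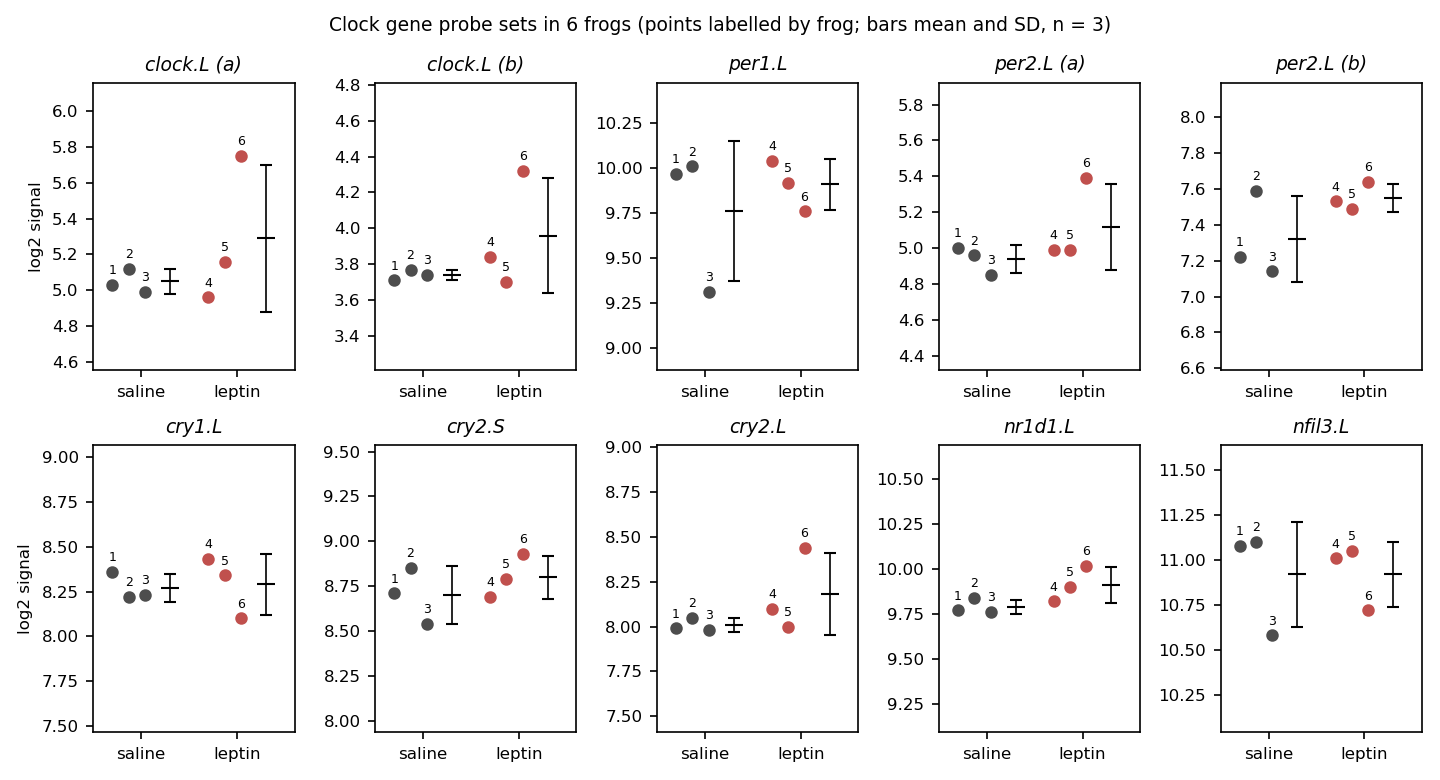
Log2 signal (vertical axis, each panel spanning the same 1.6 log2 units) of the 10 clock gene probe sets in saline frogs (grey) and leptin frogs (red), each point labelled with its frog, with the mean and SD of 3 frogs beside it. The groups overlap in every panel; saline frog 3 is lowest for *per1.L* and *nfil3.L* and leptin frog 6 is highest for both *clock.L* panels.

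*clock* encodes an activator of the loop, the partner of BMAL1. Its probe set (a), at percentile 20.2 of mean signal among all probe sets, read 5.03, 5.12 and 4.99 in saline frogs 1 to 3 and 4.96, 5.16 and 5.75 in leptin frogs 4 to 6. Probe set (b), at percentile 4.09, read 3.71, 3.77 and 3.74 in saline frogs and 3.84, 3.70 and 4.32 in leptin frogs. In both, leptin frog 6 stood above the other 5 frogs, which spanned little. The differences were log2 0.24 (SE 0.20) and 0.22 (SE 0.16), with limma adjusted p = 0.906 for both, and 0.01 and 0.04 without leptin frog 6. These signals lay near the low end of the scale, where a level cannot be told from background without a measure of it, and none was used.

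The period genes encode the repressors that carry the negative limb together with the cryptochromes. *per1.L* was among the brighter members, at percentile 82.0. It read 9.97, 10.01 and 9.31 in saline frogs and 10.04, 9.92 and 9.76 in leptin frogs. Saline frog 3 was the lowest, and saline frogs 1 and 2 lay within 0.1 of the highest leptin frog. The difference was log2 0.14 (SE 0.20, limma adjusted p = 0.918, 95% interval -0.34 to 0.62), and it was -0.08 without saline frog 3.

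*per2.L* probe set (b), at percentile 50.2, had the smallest p of the members. It read 7.22, 7.59 and 7.14 in saline frogs and 7.53, 7.49 and 7.64 in leptin frogs. Saline frog 2 lay among the leptin frogs, and the other 2 saline frogs below them. The difference was log2 0.24 (SE 0.13, 95% interval -0.09 to 0.56, unadjusted p = 0.125, limma adjusted p = 0.906). Without saline frog 2 it was 0.38 (unadjusted p = 0.00996, limma adjusted p = 0.743), and this was the single member and setting to reach an unadjusted p under 0.05. The share of all probe sets under that threshold in this setting is not given here. Probe set (a), at percentile 18.4, read 5.00, 4.96 and 4.85 in saline frogs and 4.99, 4.99 and 5.39 in leptin frogs, a difference of log2 0.18 (SE 0.13). It was 0.05 without leptin frog 6, where probe set (b) gave 0.19.

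The cryptochromes bind the period proteins and block CLOCK and BMAL1. *cry1.L*, at percentile 61.7, was nearly level, with 8.36, 8.22 and 8.23 in saline frogs and 8.43, 8.34 and 8.10 in leptin frogs (log2 0.02, SE 0.11, 95% interval -0.24 to 0.28). Leptin frogs 4 and 6 were here the highest and the lowest of all 6.

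*cry2* was measured for both copies. *cry2.L* read 7.99, 8.05 and 7.98 in saline frogs, and 8.10, 8.0 and 8.44 in leptin frogs. *cry2.S* read 8.71, 8.85 and 8.54 in saline frogs, and 8.69, 8.79 and 8.93 in leptin frogs. Leptin frog 6 was the highest and saline frog 3 the lowest for both copies. The differences were log2 0.17 (SE 0.13) for *cry2.L* and 0.11 (SE 0.11) for *cry2.S*, and 0.04 for *cry2.L* without leptin frog 6. Whether the copies responded unequally was tested on the L minus S difference within each frog, over 2009 genes with a probe set for both copies. For *cry2* the leptin effect differed between copies by log2 0.07 (SE 0.11, 95% interval -0.21 to 0.34, limma adjusted p = 0.947). Over all pairs 0 passed (0%), and 5.13% had an unadjusted p under 0.05.

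*nr1d1.L* and *nfil3.L* represent the repressors of the stabilizing loops. *nr1d1.L*, at percentile 82.2, read 9.77, 9.84 and 9.76 in saline frogs and 9.82, 9.90 and 10.02 in leptin frogs. It varied least of the members over the 6 frogs, with a range of 0.25 that lay at percentile 22.2 of all ranges, and leptin frog 4 fell within the saline frogs. The difference was log2 0.12 (SE 0.08, limma adjusted p = 0.906), and its interval reached from 0.945-fold to 1.25-fold. In the RefSeq gene table *nr1d1.L* lies next to *thra.L*, the thyroid hormone receptor alpha gene, which was looked up after its value was seen. *thra.L* read 9.22 to 9.36 in saline frogs and 9.53 to 9.63 in leptin frogs, without overlap (log2 0.30, SE 0.08, unadjusted p = 0.0082, limma adjusted p = 0.906). Such an ordering, leptin above saline, was seen in 5.15% of all probe sets.

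*nfil3.L*, at percentile 92.0, read 11.08, 11.10 and 10.58 in saline frogs and 11.01, 11.05 and 10.72 in leptin frogs. Its group means were equal at 10.92, with a low frog in each group. The difference was log2 0.00 (SE 0.17, 95% interval -0.40 to 0.41), and -0.17 without saline frog 3. In *per1.L* and *nfil3.L* the low saline frog was frog 3, whose block had the highest mean of the muscle markers. Its means of the hypothalamic (9.67) and pituitary (12.01) markers were also the highest. The parts of these traits in its values cannot be told apart. A muscle covariate was the mean of *acta1*, *tnnt3*, *ckm* and *mylpf*, 4 of the 8 muscle markers, each highest in saline frog 3. Of the markers left out, *tnni2.S* and *tnnc2.L* were also highest there, and *myh4.L* and *atp2a1.S* were not (4.28 and 10.25). This covariate largely set saline frog 3 apart. With it the differences were -0.16 for *per1.L* and -0.22 for *nfil3.L*, neither of which passed (limma adjusted p = 0.992 for both). A pituitary covariate was the mean of *gh1*, *prl.1*, *pomc* and *cga*, 4 of the 7 measured markers, each lowest in saline frog 1. The markers left out were also lowest there, *chga.L* by little (12.54, against 12.90 to 13.30 in the others). *fshb.L* was low in saline frog 2 as well (4.63 and 5.51). With the pituitary covariate the differences were 0.25 for *per1.L* and 0.09 for *nfil3.L* (limma adjusted p = 0.936 and 0.958). This covariate largely set saline frog 1 apart, and without that frog the differences were 0.24 and 0.08.

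Most member probe sets had the same lowest frog, and most the same highest frog. Saline frog 3 was the lowest of the 6 frogs in 7 of the 10 probe sets, where it was the lowest in 21.7% of all probe sets. For *cry2.L* (7.98 against 7.99) and *nr1d1.L* (9.76 against 9.77) it was barely below saline frog 1. Leptin frog 6 was the highest in 7 of the 10, where it was the highest in 25.9% of all. Averaged over the 10 probe sets, saline frog 3 lay 0.21 below the mean of the 6 frogs (-0.21) and leptin frog 6 lay 0.19 above it. The other 4 frogs lay between -0.04 and 0.03. The members' median difference of 0.16 was 0.06 without leptin frog 6, and estimates above 0 numbered 7 of 10 without saline frog 3. The 10 probe sets come from the same 6 arrays, with *clock*, *per2* and *cry2* each counted by 2, and are not independent of each other.

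**Figure D2:**
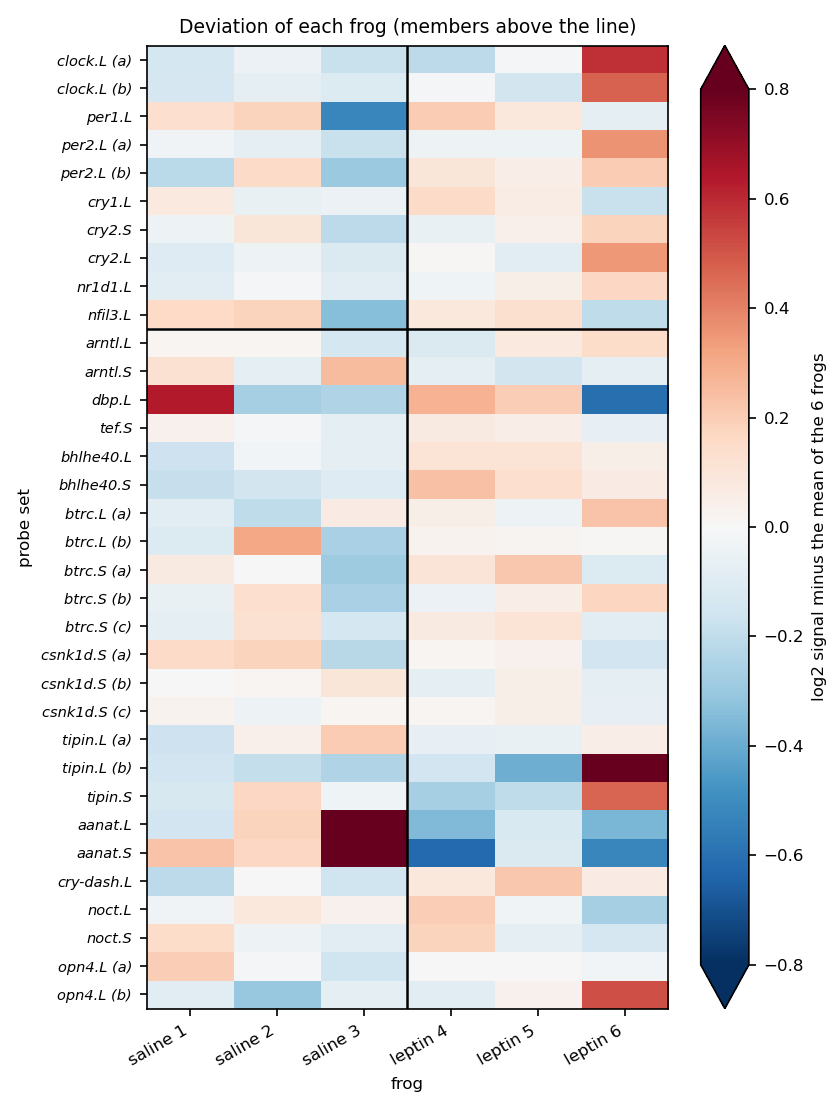
Log2 signal minus the mean of the 6 frogs (colour, red above and blue below the mean, capped at 0.8) for each probe set (rows) in each frog (columns), with the 10 clock gene probe sets above the line and 24 probe sets of other clock pathway genes below it. Saline frog 3 is blue and leptin frog 6 red in most rows above the line, and *aanat* is darkest red in saline frog 3.

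Leptin frog 6 stood apart from the other leptin frogs in a way that varied with signal. Over the dimmest 10% of probe sets its median excess over the mean of leptin frogs 4 and 5 was log2 0.17, and over the next 10% it was 0.19. In the bins of 10% above percentile 40 the median lay between -0.10 and -0.01. The *clock.L* probe sets exceeded the other leptin frogs by 0.69 (a) and 0.55 (b), and *per2.L* (a) by 0.41. *cry2.L* (0.39), *cry2.S* (0.19), *nr1d1.L* (0.16) and *per2.L* (b) (0.13) also exceeded them, in a range of signal where the median was below 0. *nfil3.L* (-0.31), *cry1.L* (-0.28) and *per1.L* (-0.21) lay below. With quantile normalization, which gives all arrays the same distribution, all 10 estimates were above 0 and 0 passed. The smallest were 0.02 for *nfil3.L* and 0.04 for *cry1.L*. The members' median was 0.15 with quantile normalization, against 0.16 on the values as deposited. Apart from this setting, the part of this array's distribution in the estimates was not tested. With array weights the members' median was 0.07, and without this array it was 0.06, as above.

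**Figure D3:**
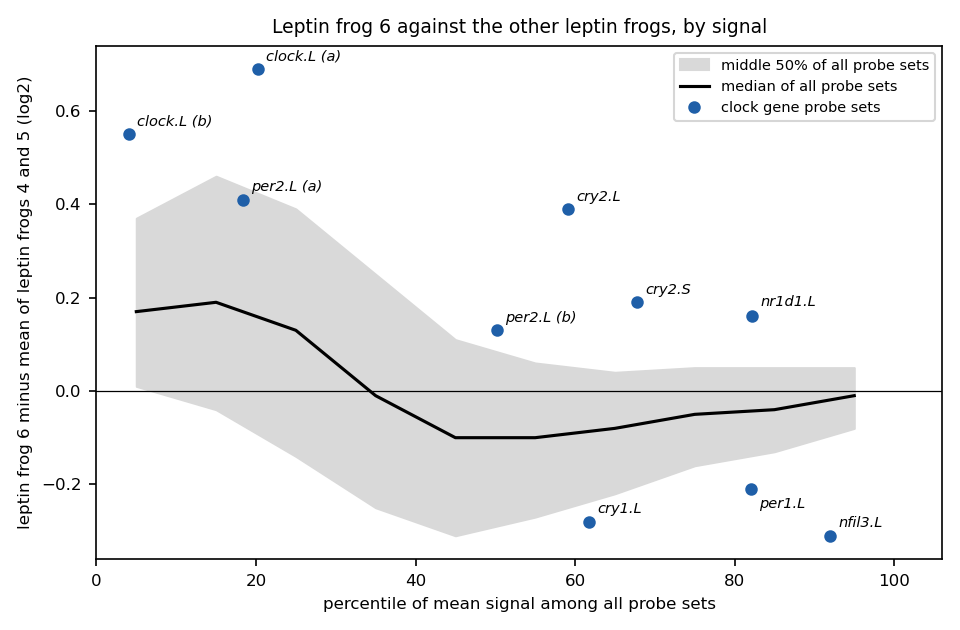
Leptin frog 6 minus the mean of leptin frogs 4 and 5 in log2 units (vertical axis) against the percentile of mean signal among all probe sets (horizontal axis). The line is the median and the band the middle 50% of all probe sets in each bin of 10%, and the points are the clock gene probe sets: both *clock.L* points and *cry2.L*, *cry2.S*, *nr1d1.L* and *per2.L* (b) lie above the band, and *cry1.L*, *per1.L* and *nfil3.L* below it.

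The other genes of the clock pathway were counted in 5 lists by role. Of 39 further genes listed, 19 had a single-symbol probe set, 34 probe sets in all. With limma 0 of the 34 passed over all probe sets (adjusted p from 0.906 to 0.999). At an unadjusted p under 0.05 there were 2 with higher and 1 with lower signal in leptin frogs, where 2.03% and 2.68% of all probe sets were. The median difference was log2 0.01, the same as over all probe sets, with 18 estimates above and 16 below 0. *npas2*, *per3*, *nr1d2* and *rora* had no single-symbol probe set.

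Among the activators, *arntl*, the gene of BMAL1, was measured for both copies. *arntl.L* read 8.15, 8.15 and 7.99 in saline frogs and 8.02, 8.21 and 8.28 in leptin frogs (log2 0.08, SE 0.10). *arntl.S* read 7.42, 7.22 and 7.55 in saline frogs and 7.22, 7.15 and 7.22 in leptin frogs (log2 -0.20, SE 0.10). The copies differed in sign, but the test of the difference did not pass (log2 0.28, SE 0.15, 95% interval -0.09 to 0.65, limma adjusted p = 0.875). In the activator list, *clock* included, 0 of 4 probe sets passed, and their median difference was 0.15. It was 0.02 without leptin frog 6 and 0.05 with array weights, and leaving out each other frog gave up to 0.21 (without leptin frog 4).

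The repressor list, with the *per* and *cry* members and no other measured gene, had a median difference of 0.16 over 6 probe sets. In the nuclear receptor and bZIP list, 0 of 4 probe sets passed and the median was 0.02. The D-box activator *dbp.L* varied most between frogs of these, with 7.36, 6.46 and 6.48 in saline frogs and 7.0, 6.92 and 6.12 in leptin frogs (log2 -0.08, SE 0.33). Its highest and lowest frogs were thus saline frog 1 and leptin frog 6. The related *tef.S* stayed within 9.96 to 10.11 in all 6 frogs (log2 0.04, SE 0.08).

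Among the clock modifiers, *bhlhe40* encodes a basic helix-loop-helix repressor (DEC1) that competes at E-boxes. *bhlhe40.S* read 9.09, 9.13 and 9.17 in saline frogs and 9.51, 9.41 and 9.34 in leptin frogs. *bhlhe40.L* read 9.57, 9.71 and 9.66 in saline frogs and 9.84, 9.84 and 9.78 in leptin frogs. The groups were apart for both copies, leptin above saline, an ordering seen in 5.15% of all probe sets. The differences were log2 0.29 (SE 0.08, unadjusted p = 0.0101) and 0.17 (SE 0.08, unadjusted p = 0.0622), each with a limma adjusted p of 0.906. Leaving out single frogs kept the *bhlhe40.S* difference between 0.24 and 0.33. The kinase and ubiquitin ligase genes had smaller differences and overlapping groups. The 3 probe sets of the casein kinase *csnk1d.S* differed by -0.07, -0.07 and 0.00, and the 5 of the F-box gene *btrc* by 0.04 to 0.15. *tipin.L*, the partner of *timeless*, had a dim probe set at 6.30 in leptin frog 6 and at 4.77 to 5.01 in the others. Over the 19 modifier probe sets the median was 0.00 with 10 estimates above 0.

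**Figure D4:**
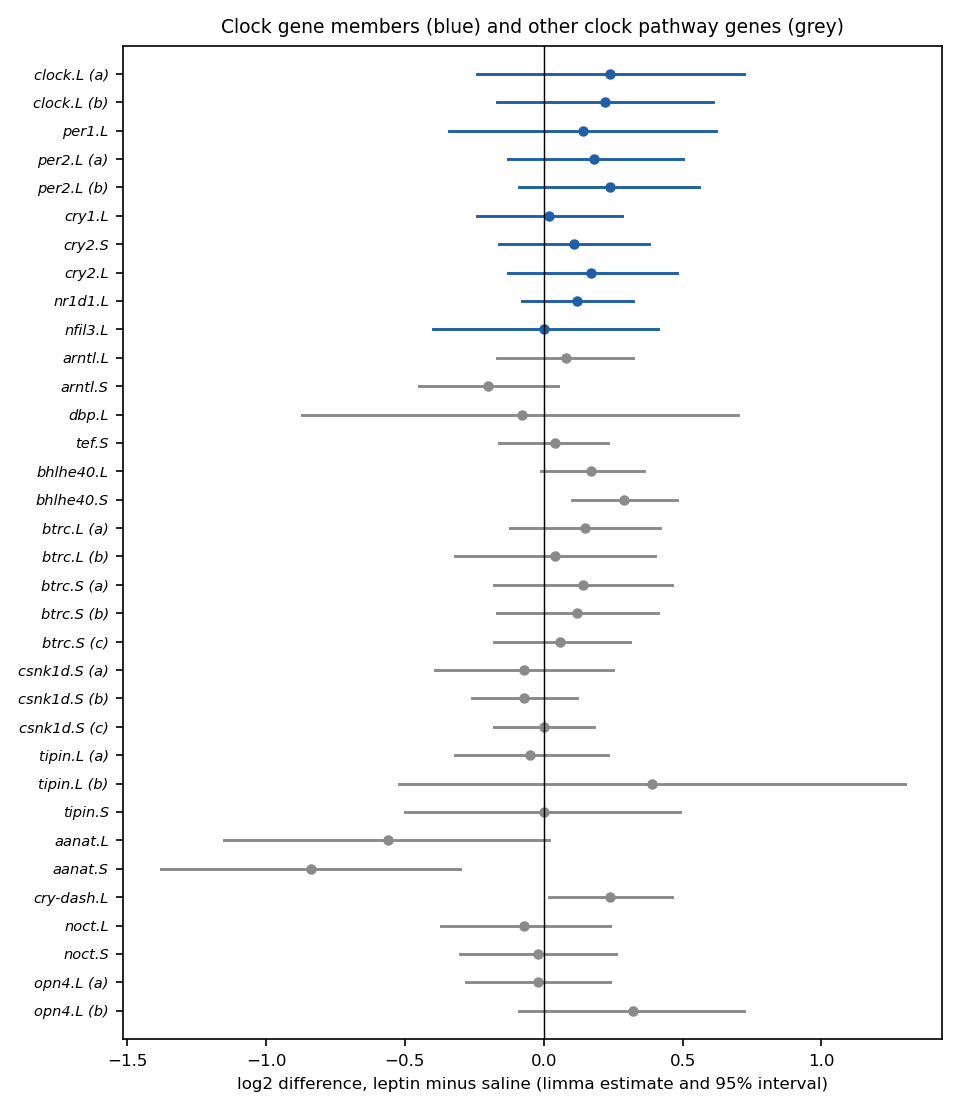
Limma estimates of the log2 difference, leptin minus saline (points), with 95% intervals (lines), for the 10 clock gene probe sets (blue) and 24 probe sets of other clock pathway genes (grey); letters mark several probe sets of 1 copy. Every blue interval spans 0, and among the grey ones those of *bhlhe40.S*, *cry-dash.L* and *aanat.S* do not, none of which passed adjustment.

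The list of outputs and light input held the largest differences of the pathway. *aanat* encodes arylalkylamine N-acetyltransferase, the enzyme that sets the rhythm of melatonin synthesis in pineal and retina. *aanat.S* read 8.38, 8.32 and 9.02 in saline frogs and 7.53, 8.04 and 7.63 in leptin frogs. The groups were apart, with leptin below saline (log2 -0.84, SE 0.22, unadjusted p = 0.00824, limma adjusted p = 0.906), an ordering seen in 6.78% of all probe sets. *aanat.L* read 8.34, 8.67 and 9.32 in saline frogs and 8.14, 8.37 and 8.13 in leptin frogs, with overlap (log2 -0.56, SE 0.24, unadjusted p = 0.0557). Saline frog 3 was the highest for both copies, and without it the differences were -0.62 and -0.29. The copies' effects differed by log2 0.28 (SE 0.13, limma adjusted p = 0.868). Of 14 photoreceptor and pineal markers, *aanat* among them, 10 were measured, and their mean ranged from 5.89 to 6.75 in saline frogs and from 6.21 to 6.67 in leptin frogs. Saline frog 3 had the highest mean, at 6.75 against 6.67 in leptin frog 5. *aanat.L* itself entered this mean, at 9.32 in saline frog 3 and 8.37 in leptin frog 5, and the order of these frogs depends on it. Of the other markers, *gnat2.S*, *pde6b.L* and *gngt1.L* were highest in saline frog 3. *gnat1.L*, *pde6h.L*, *crx.L* and *tph1.L* were highest in leptin frog 5, *opn1sw.L* in leptin frog 6 and *sag.S* in saline frog 1. The part of tissue content in the *aanat* values was not tested.

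*cry-dash.L*, a cryptochrome relative of the photolyase family, read 7.63, 7.84 and 7.68 in saline frogs and 7.92, 8.05 and 7.90 in leptin frogs, without overlap (log2 0.24, SE 0.09, unadjusted p = 0.038, limma adjusted p = 0.906). This ordering too was seen in 5.15% of all probe sets. Nocturnin (*noct*), a rhythmic gene known from *Xenopus* retina, differed by -0.07 (SE 0.13) for *noct.L* and -0.02 (SE 0.12) for *noct.S*. The photopigment melanopsin (*opn4.L*) had a probe set with a difference of log2 0.32 (SE 0.17), highest in leptin frog 6 at 6.54 against 5.72 to 6.06 elsewhere, and a dimmer one at -0.02. Over the 11 probe sets of this list the median was 0.01.

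For each member the gene with the most similar profile over the 6 arrays was looked up among 9272 single-symbol genes, as a description. With so few arrays the highest Pearson r was near 1 for every member. It was 0.9971 for *clock.L* with *ticrr.L*, 0.9995 for *per1.L* with *eif4ebp2.S* and 0.9937 for *per2.L* with *cask.S*. It was 0.9891 for *cry1.L* with *sdc4.L* and 0.9959 for *cry2.S* with *lmbrd2.L*. It was 0.9872 for *nr1d1.L* with *gm2a.S* and 0.9887 for *nfil3.L* with *mllt1.S*. *gm2a.S* differed by log2 0.61 (SE 0.25), and the other 6 by 0.01 to 0.20. None of these partners was a clock pathway gene of the lists.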

How the data were processed

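The authors deposited log2 signals, 1 per probe set and array, for 3 saline and 3 leptin frogs. The tools in the submitters' processing notes are RMA, affy and limma; which made the values, and with what settings, is not given in the sources used. Of 32635 probe sets, 96 AFFX controls were left out. Symbols came from the array annotation: 15495 probe sets had 1 symbol, 279 several and 16765 none. Members kept their symbols in the RefSeq gene table of Xenopus_laevis_v10.1, which was used for names, copies and gene order alone.

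The comparison of leptin with saline used limma 3.58.1 (lmFit, eBayes, two-sided, in R 4.3.3), without further normalization or covariate, on all 32539 probe sets with Benjamini-Hochberg adjustment at 0.05. L and S copies, each by its brightest probe set, were compared through their difference within frogs. Each difference is the leptin mean minus the saline mean of log2 signal, its SE is moderated, and 95% intervals are not adjusted. The labels number the samples as separate frogs. Scan dates were not analysed here. The members, lists and alternatives were chosen with earlier results of these data known. Named genes were all member probe sets and 8 fixed pathway genes. To these came, per list, up to 3 further genes with the smallest p, and the most similar gene of each member. Named outside these rules, with values known, were *socs3*, *thra.L*, *vip.L*, *prok2.S*, *adcyap1.L* and the marker genes. The steps were tested on simulated data of 32539 probe sets, 200 of them changed: 69% of changes of 1 and 92% of changes of 2 on the log2 scale were called, with 9 false calls. The simulated noise was normal and independent between probe sets, so these shares check the steps and are not the power of this comparison. In the real data 0 probe sets passed, and *socs3.L*, at log2 1.21, had a limma adjusted p of 0.291. Arrays have no depth, and their number limits the precision.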

Additional observations from a re-analysis of the deposited data

How the results depend on the processing

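In 144 member values under 15 alternatives, 0 passed adjustment (smallest limma adjusted p = 0.721). Signs turned for per1.L (-0.16), cry2.S (-0.02) and nfil3.L (-0.22) with the muscle covariate. Array weights gave a median of 0.07 for the members and for the repressors, 0.03 for dbp.L and 0.01 for noct.L. The *csnk1d.S* probe set at 0.00 gave 0.01 with array medians subtracted, 0.02 with quantile normalization and 0.03 with array weights. *tipin.S* gave 0.01 with the first and 0.01 with the second, and a *btrc.L* probe set gave a value just below 0 (rounded, 0.00) with quantile normalization.

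Leaving out each frog gave medians of 0.06 to 0.20 for the members, 0.08 to 0.20 for the repressors and -0.08 to 0.10 for the nuclear receptor and bZIP list. At an unadjusted p under 0.05 it gave 0 to 1 members, and the share of all probe sets at that threshold is not given here. Past adjustment it gave 0 members, 0 to 4 of all probe sets and 0 to 1 pairs of copies. Each maximum above 0 came without saline frog 2. Ranges that crossed 0 were -0.08 to 0.27 (per1.L), -0.05 to 0.11 (cry1.L), -0.17 to 0.11 (nfil3.L), -0.24 to 0.21 (dbp.L), -0.11 to 0.05 (noct.S) and -0.18 to 0.05 (noct.L). They were -0.20 to 0.00 and -0.02 to 0.03 (csnk1d.S), -0.08 to 0.21 (btrc.L), -0.10 to 0.08 (opn4.L), -0.24 to 0.13 (tipin.S), and -0.15 to 0.04 and -0.08 to 0.69 (tipin.L). The *cry2* copies' difference ran from 0.00 to 0.15. The causes were not tested beyond the frogs left out. No paired analysis was possible because frogs 1 to 3 and 4 to 6 share no number. With 3 frogs a group, changes within the intervals given could not be shown or excluded. The intervals do not mark a size above which a change would pass: *socs3.L*, 2.32-fold higher, did not. The dim *clock.L* and *per2.L* (a) signals had no background measure.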

Other observations

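Peptide genes tied to the mammalian suprachiasmatic nucleus ranged from dim to bright in these blocks. The gene of vasoactive intestinal peptide, *vip.L*, which couples clock neurons in mammals, read 6.87, 7.14 and 8.07 in saline frogs and 7.32, 7.72 and 7.60 in leptin frogs (log2 0.19, SE 0.31). The prokineticin gene *prok2.S*, a clock output in mammals, was dim in every frog, between 3.75 and 3.95. The peptide gene *adcyap1.L* (PACAP), which carries light input in mammals, was bright and lay between 11.92 and 12.09. Of 13 hypothalamic markers, *vip* among them, 8 were measured, and their mean was highest in saline frog 3 at 9.67, against 8.75 to 9.18 in the others. The excess was largest for *pmch.L*, at 11.88 against 10.17 to 10.71. *rax.S* was instead highest in leptin frog 6 (5.85, against 5.40 in saline frog 3). In saline frog 3, 7 of the 10 clock gene probe sets were the lowest, *cry2.L* and *nr1d1.L* barely so. A link between these observations was not tested.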
